A study of Mus musculus with 24 samples.

Results

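The change common to tumour-resident myeloid cells was measured by comparing all 12 libraries from colon tumours with all 12 libraries from colonic lamina propria (LP), over 4 sorted populations and every gene that passed a filter on low values. That left 12878 of the 17301 deposited genes. The populations were F4/80hi MHCIIhi macrophages (Ma.Hi in the plots), F4/80hi MHCIIlow macrophages (Ma.Lo), Ly6Chi MHCII- monocytes (Mo) and Ly6Ghi F4/80- CD11b+ neutrophils (Ne), with 3 libraries for each population and tissue and 24 in all. LP came from mice labelled C57/BL and tumours from mice labelled APC/Min, which carry a germline truncating mutation of Apc and form intestinal adenomas, and adult mice of both sexes were used. The tumour mice had received dextran sodium sulphate. The methods also describe that treatment for controls, at another concentration, whereas the labels call the LP healthy, so the treatment of the LP mice is not settled. Each library was made from the pooled tissue of several mice, and the donor number of a library is taken here to name its pool. The labels do not say so. On that reading the 12 tumour libraries came from 4 pools and the 12 LP libraries from 4 others. Libraries of different populations can then share mice. LP and tumour were also digested and enriched by different procedures, which cannot be told apart from the tissue itself.

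Most adult lamina propria macrophages are replenished from blood monocytes and hold inflammatory responses in check. For the MHCIIlow ones the study reported little labelling from bone marrow and no dependence on CCR2. Neutrophils arrive fully formed from the bone marrow. Inside a tumour all of these cells meet low oxygen, lactate, dying cells and cytokines made by the epithelium and by each other. Tumour myeloid cells are known for arginine metabolism, for proteases that remodel matrix and for cytokines of the interleukin-1 and interleukin-6 families, and interferon-stimulated genes are the standard readout of interferon signalling in them.

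Values are RPKM, which scale reads to the length of the gene and the size of the library, and each library held between 12.8 and 41.7 M reads on genes (median 31.2 M in LP and 24 M in tumour). The common effect is the tumour minus LP difference on the log2 scale in limma, with population as a term. P values were adjusted by the Benjamini-Hochberg method across every gene tested and called under 0.05. The sort markers followed the labels. Adgre1, which encodes F4/80, stood between 247 and 470 RPKM in macrophages, between 57.4 and 108 in monocytes and between 25.5 and 64.7 in neutrophils. H2-Ab1, an MHC class II gene, ran from 3960 to 10500 RPKM in MHCIIhi and from 102 to 2120 in MHCIIlow macrophages. S100a8, a marker of neutrophils, ran from 4490 to 13500 in neutrophils against at most 60.2 elsewhere. Apc itself was measured at 1.22 to 3.18 RPKM in LP and 0.828 to 3.01 in tumour libraries, a common effect of −0.25 (standard error 0.16, adjusted p = 0.226). A point mutation need not alter the amount of its transcript, so Apc checks no label. The LP monocyte libraries III and V stood apart in squamous keratins and their partners, which summed to 3030 and 1120 RPKM there against 3.9 to 47.7 in the other 10 LP libraries and 0.259 to 35.6 in tumours.

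Of the 12878 genes, 2093 (16.3%) were called higher and 2419 (18.8%) lower in tumours, 35.0% in all. The sign was the same in all 4 populations for 1613 of the higher genes (12.5% of genes tested) and 1750 of the lower genes (13.6%). A stricter count asked that, in each population separately, all 3 tumour libraries lay on the same side of all 3 LP libraries. It left 282 higher (2.19%) and 295 lower genes (2.29%). Fewer still passed the test in each of the 4 populations alone, 129 higher (1.0%) and 114 lower (0.885%). Without the LP monocyte libraries III and V these became 52 and 47, with 1 LP monocyte library left, while the common effect was called higher for 2006 genes and lower for 2312. Taken alone, MHCIIhi macrophages had 8.01% of genes higher and 11.5% lower, MHCIIlow macrophages 11.5% and 11.8%, monocytes 4.86% and 4.43%, and neutrophils 13.1% and 19.0%. The effect was not always of the same size: a test of the differences between the populations called 3195 genes (24.8%), and 1423 of these were also called for the common effect. The median common effect over all genes was −0.04, and scaling the libraries by their summed reads, in place of the authors' scaling, moved it to −0.16 and the split of calls to 1504 higher and 3037 lower.

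Genes to describe were taken from those without overlap in any population and with a mean of at least 5 RPKM in the higher tissue of each. There were 178 such genes higher in tumours and 170 lower, and the 15 of each with the largest value of their smallest effect are described here. That ranking is by size and not by likeness of the 4 effects. The heat map shows them library by library. Of these 30 genes, 24 passed the test in each of the 4 populations alone and 11 differed in the size of the effect between populations. The last gene kept among the higher, Ncf1, had a smallest effect of 1.29 and the next, Fn1, 1.28. Among the lower genes Rtp4 was the last at −1.12, and Cmtm3 followed at −1.08.

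**Figure D1:**
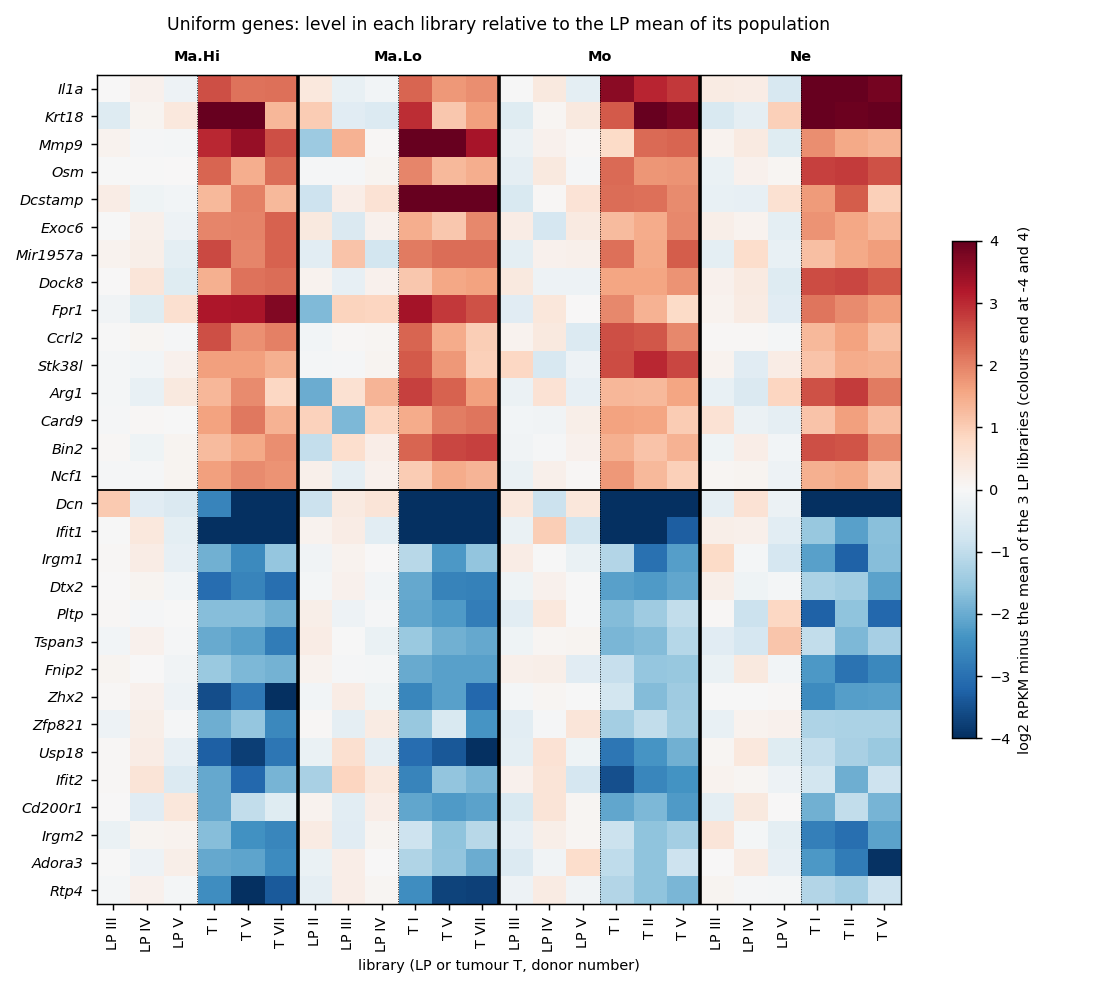
Colour shows log2 RPKM of each gene (rows) in each of the 24 libraries (columns), less the mean of the 3 LP libraries of the same population, for the 15 genes higher and the 15 lower in tumours. Every tumour column is red for Il1a to Ncf1 and blue for Dcn to Rtp4, in all 4 populations.

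Il1a came first among the genes that rose by this ranking. It encodes interleukin-1 alpha, an alarm cytokine that acts on the same receptor as interleukin-1 beta, and lies on chromosome 2 from 129299610 to 129309972 (GRCm38, minus strand). In LP it measured 82.1, 92 and 70.9 RPKM in MHCIIhi macrophages, 165, 100 and 115 in MHCIIlow macrophages, 191, 255 and 147 in monocytes and 262, 255 and 133 in neutrophils. The tumour values were 485, 363 and 378, then 628, 411 and 454, then 2340, 1580 and 1380, and lastly 4100, 3910 and 2920, in the same order. No tumour library of any population reached down to any of the 12 LP libraries. The common effect was 2.90 (standard error 0.22, adjusted p = 3.09e-09), from 1.98 in MHCIIlow macrophages to 4.12 in neutrophils, and it differed between the populations (F test, adjusted p = 0.00159).

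Osm encodes oncostatin M, an interleukin-6 family cytokine that acts on stroma and epithelium, on chromosome 11 from 4236420 to 4241026. Its LP values were 78, 77.5 and 80.2 RPKM in MHCIIhi and 76.3, 76.4 and 85 in MHCIIlow macrophages, 465, 786 and 575 in monocytes and 696, 949 and 893 in neutrophils. In tumours these became 397, 214 and 371, 307, 193 and 219, 2850, 2010 and 2060, and 5590, 5830 and 4910. Macrophages stayed lowest and neutrophils highest, while every population stood higher, by 2.05 in common (standard error 0.14, adjusted p = 1.21e-09) and by 1.57 to 2.69 in the single populations. A difference between the populations was not called for Osm (adjusted p = 0.07).

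Arg1, arginase 1, which splits arginine into ornithine and urea, was most abundant in monocytes and in tumour MHCIIlow macrophages. It measured 34.3, 29.9 and 47.7 RPKM in MHCIIhi macrophages of LP and 92.4, 135 and 64.5 in those of tumours. MHCIIlow macrophages went from 42.9, 260 and 439 to 1120, 862 and 524, monocytes from 482, 838 and 447 to 1410, 1380 and 1700, and neutrophils from 17.4, 14.2 and 38.4 to 125, 148 and 89.4. The groups did not overlap in any population, although the LP MHCIIlow libraries were widely spread. The common effect was 1.86 (standard error 0.29, adjusted p = 3.55e-05), and the test in single populations was passed in MHCIIlow macrophages and neutrophils.

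Mmp9, a gelatinase of the neutrophil granules, rose by 2.66 (standard error 0.33, adjusted p = 2.68e-06). Its level spanned orders of magnitude, between 1.66 and 2.21 RPKM in LP monocytes against 3.34 to 9.71 in tumour monocytes, and between 553 and 994 in LP neutrophils against 2040 to 2810 in tumour neutrophils. MHCIIhi macrophages went from a range of 15.9 to 18.3 to one of 101 to 187, and MHCIIlow macrophages from 7.6 to 54.1 to 205 to 645. Mmp9 is also one of the 10 markers of neutrophils used here. The other 9 summed to 38.1 to 42.2 RPKM in LP and 38.5 to 52.8 in tumours in MHCIIhi macrophages, and to 23.4 to 35.1 and 46.1 to 53.0 in MHCIIlow macrophages. Mmp9 stood above the sum of the other 9 in tumour macrophages and also in LP library III of MHCIIlow macrophages (54.1 RPKM). In tumour neutrophils it stood below their sum of 22000 to 31300. What part neutrophil transcripts have in the macrophage values was not tested.

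Several of the other genes that rose serve the approach and the killing functions of phagocytes. Fpr1, the formyl peptide receptor, rose by 2.39 (standard error 0.29), and Ccrl2, an atypical receptor that binds chemerin, by 1.86 (0.16), from 68.6 to 135 RPKM in macrophages and monocytes of LP to between 146 and 619 in tumours. Ncf1, the p47-phox subunit of the NADPH oxidase, had the narrowest range of effects among the 15 genes, 1.29 to 1.78, and 1.44 (0.10) in common. Card9, the adaptor of C-type lectin receptors, rose by 1.58 (0.23) and Dock8, an exchange factor for Cdc42 needed for leukocyte migration, by 1.90 (0.16). The rest of the 15 were Dcstamp, a fusion protein of osteoclasts and giant cells, with an effect of 6.38 in MHCIIlow macrophages against 1.54 to 2.10 elsewhere; Exoc6 (exocyst, 1.67), Stk38l (a kinase of the NDR family, 1.85), Bin2 (a BAR domain protein of leukocytes, 1.94), Krt18 and Mir1957a. Each of these passed the test for the common effect.

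Mir1957a needs care, since it is a 66-base gene within Slc2a1, which encodes the glucose transporter GLUT1. The reads of Mir1957a, from 0.991 to 28.3 RPKM in LP and 5.61 to 55.4 in tumours, cannot be told apart from unspliced Slc2a1 RNA. Slc2a1, named for this reason after its values were seen, rose by 1.03 (standard error 0.11, adjusted p = 1.74e-07), by 0.61 in neutrophils to 1.51 in MHCIIlow macrophages.

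**Figure D2:**
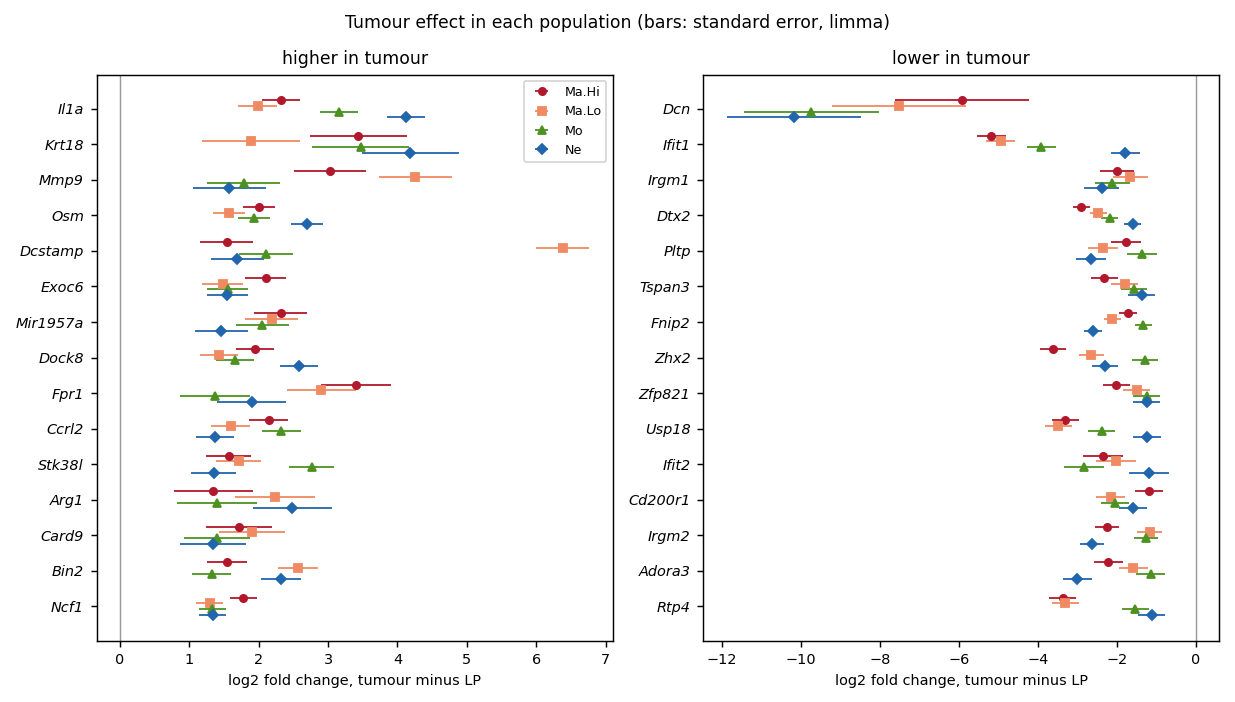
Points are the tumour minus LP differences (log2 fold change) in the 4 populations for the 15 genes higher (left) and the 15 lower in tumours (right), with bars of 1 standard error from limma. All points lie on the same side of 0, with the widest spread for Dcstamp at 1.54 to 6.38. The points of Dcn rest in part on the prior count, since tumour libraries had few or 0 reads of it.

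Of the 15 genes that fell by this ranking, Ifit1, Ifit2, Usp18, Rtp4, Irgm1 and Irgm2 are known to be induced by interferon. Ifit1 encodes a cytoplasmic sensor of viral RNA caps and lies on chromosome 19 from 34640871 to 34650009. Its LP values were 118, 160 and 92.2 RPKM in MHCIIhi and 76.6, 85.5 and 52.6 in MHCIIlow macrophages, 40.6, 95.7 and 29.3 in monocytes and 99.5, 97.8 and 63.2 in neutrophils. In tumours it stood at 4.81, 2.49 and 3.02, at 2.1, 2.47 and 2.29, at 2.94, 2.32 and 4.89, and at 29.5, 18.8 and 26.9. Tumour neutrophils stood higher than the other tumour populations and still under every LP neutrophil library. The common effect was −3.96 (standard error 0.33, adjusted p = 1.21e-08), with −5.18 in MHCIIhi macrophages and −1.79 in neutrophils (F test for differences, adjusted p = 0.000207).

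Irgm1, an immunity-related GTPase induced by interferon gamma that acts in autophagy of intracellular bacteria, lay lower in tumours in each population. In LP it measured 32.4, 38.3 and 24.9 RPKM in MHCIIhi macrophages, 13.8, 16.9 and 15.3 in MHCIIlow macrophages, 58.3, 47.2 and 39.9 in monocytes and 143, 80.3 and 52.6 in neutrophils. The tumour values were 8.24, 5.42 and 10.8, then 7.04, 3.13 and 5.09, then 21.2, 6.05 and 10.5, and 18.6, 8.9 and 25.7. It fell by 2.04 on the log2 scale (standard error 0.21, adjusted p = 2.34e-07), with single effects from −2.38 to −1.66, and a difference between the populations was not called (F test, adjusted p = 0.804). Irgm2, its relative, fell by 1.83 (0.20), although part of its exons overlap Igtp and reads of the family may be shared.

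Over the whole list of 34 interferon-stimulated genes, 28 were called lower and 0 higher, against 18.8% and 16.3% of all genes. The median common effect was −1.08, and the median per population went from −1.59 in MHCIIhi macrophages through −1.26 in MHCIIlow macrophages and −0.98 in monocytes to −0.62 in neutrophils. The sign was the same in all populations for 23 of the 28, as it was for 72.3% of all genes called lower. By size of the effect the list was led by Ifit1, Mx1 (a dynamin-like antiviral GTPase, −3.61), Cmpk2 (a mitochondrial nucleotide kinase, −2.94) and Ifit3 (−2.90). Mx1 ran from 2.16 to 45.1 RPKM in LP and from 0.0464 to 4.37 in tumour libraries and fell in each population. Cmpk2 and Ifit3 fell in both macrophage subsets and in monocytes, with effects of −0.68 (adjusted p = 0.226) and −1.06 (adjusted p = 0.0593) in neutrophils. Of the 51-base stretches of Ifit3, 50.8% occur in other genes as well, so its value may include reads of its paralogue. Usp18, the protease that removes ISG15 and dampens the interferon receptor, fell by 2.61 (standard error 0.25), and Rtp4, a chaperone of receptors, by 2.33 (0.27).

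Promoters of these genes are printed to show the interferon-stimulated response element, here the letters GAAANNGAA on either strand, in capitals. The stretches are the 150 bases before the start in RefSeq on GRCm38.p6, 5′ to 3′ on the strand of the gene. Ifit1 is at chr19:34640739-34640888, Ifit3 at chr19:34583379-34583528, Irgm1 at chr11:48871421-48871570 on the minus strand and Irgm2 at chr11:58214827-58214976.
Ifit1: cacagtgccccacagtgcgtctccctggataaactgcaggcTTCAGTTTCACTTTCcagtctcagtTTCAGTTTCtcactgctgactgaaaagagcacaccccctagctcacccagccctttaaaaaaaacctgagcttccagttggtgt
Ifit3: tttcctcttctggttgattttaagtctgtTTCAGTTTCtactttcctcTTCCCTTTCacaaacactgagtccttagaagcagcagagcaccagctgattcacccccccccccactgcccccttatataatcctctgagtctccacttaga
Irgm1: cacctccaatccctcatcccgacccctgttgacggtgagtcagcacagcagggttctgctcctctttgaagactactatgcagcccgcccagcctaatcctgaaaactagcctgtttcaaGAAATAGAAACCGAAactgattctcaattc
Irgm2: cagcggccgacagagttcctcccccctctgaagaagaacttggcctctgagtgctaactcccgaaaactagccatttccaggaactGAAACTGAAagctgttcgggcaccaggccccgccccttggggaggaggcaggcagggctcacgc
Over the 300-base windows of RefSeq (250 bases before the start to 50 after), 17 of the 31 promoters of the interferon-stimulated list held these letters (54.8%), against 7.52% of the 11495 promoters of all genes tested. The share was 8.88% for all genes called lower, 10.7% for those lower without overlap and 6.71% for all called higher. A match of letters is no shown binding site.

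The other lower genes described here have no such common label. For Dtx2, Fnip2, Zhx2 and Adora3 the size of the fall differed between the populations. Dtx2, a Deltex ubiquitin ligase linked to Notch signalling, fell by 2.29 (standard error 0.14, adjusted p = 2.51e-10), from 4.53 to 35 RPKM in LP to 1.17 to 6.4 in tumours. Fnip2, a partner of folliculin in nutrient sensing, fell by 1.95 (0.15), the transcriptional repressor Zhx2 by 2.47 (0.23), Pltp, the phospholipid transfer protein, by 2.04 (0.21), and the tetraspanin Tspan3 by 1.77 (0.18). Cd200r1, an inhibitory receptor of myeloid cells for CD200, fell by 1.75 (0.19), from 8.71 to 60.9 RPKM to between 3.04 and 16.4. Adora3, an adenosine receptor whose exons partly overlap Tmigd3, fell by 1.99 (0.23), and the zinc finger gene Zfp821 by 1.5 (0.17). Every one of the 30 genes kept its call in each of the 51 alternative analyses that were run.

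**Figure D3:**
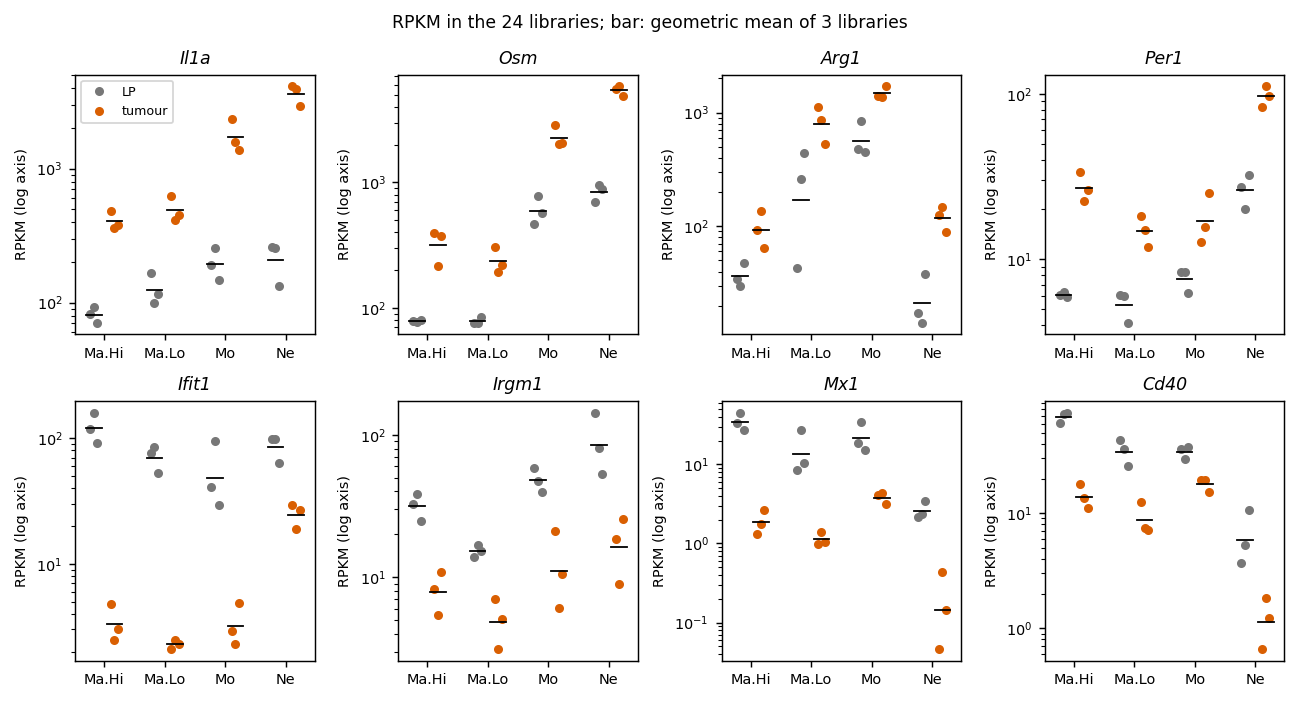
Each dot is the RPKM of 1 library on a log axis, grey for LP and orange for tumour, with bars at the geometric mean of 3 libraries. Tumour dots of Il1a, Osm, Arg1 and Per1 lie above the LP dots of the same population and those of Ifit1, Irgm1, Mx1 and Cd40 below them, without overlap.

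Many genes of hypoxia and glycolysis rose, though not evenly. Of 32 genes 19 were called higher and 2 lower, with a median common effect of 0.86. All 19 had the same sign in each population, where 77.1% of all genes called higher did. The medians were 0.42, 1.15, 0.72 and 0.54 in MHCIIhi macrophages, MHCIIlow macrophages, monocytes and neutrophils, and the size differed between populations for 19 of the 32. Egln3, a prolyl hydroxylase that marks hypoxia-inducible factors for decay, rose by 2.10 (standard error 0.60, adjusted p = 0.0098), a call that was lost without MHCIIlow macrophages (1.62, adjusted p = 0.107). Pdk1, the kinase that closes the entry of pyruvate into mitochondria, rose by 1.72 (0.31, adjusted p = 0.000191). It went from 0.619, 0.875 and 0.727 to 3.08, 6.12 and 6.19 RPKM in MHCIIhi macrophages, but from 3.42, 3.43 and 2.96 to 2.83, 4.88 and 4.98 in neutrophils, where the groups overlapped. Ddit4, an inhibitor of mTORC1, rose by 1.59 (0.22) with effects of 0.38 in MHCIIhi macrophages (adjusted p = 0.48) and 1.5 to 2.27 elsewhere. Ndrg1, a stress gene also induced by hypoxia, went the other way, with −4.63 and −3.78 in the macrophage subsets, 0.02 in monocytes and −0.55 in neutrophils.

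The core of the hypoxia response element, ACGTG, lies once in the 250 bases before the start of each of these promoters, which are shown in the same manner with the letters in capitals. Egln3 is at chr12:54203875-54204124 and Ddit4 at chr10:59951771-59952020, both on the minus strand.
Egln3: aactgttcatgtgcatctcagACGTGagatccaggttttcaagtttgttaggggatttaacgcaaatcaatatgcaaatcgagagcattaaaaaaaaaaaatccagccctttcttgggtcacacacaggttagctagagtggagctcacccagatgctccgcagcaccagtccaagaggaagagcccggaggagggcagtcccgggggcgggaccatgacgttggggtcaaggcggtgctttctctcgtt
Ddit4: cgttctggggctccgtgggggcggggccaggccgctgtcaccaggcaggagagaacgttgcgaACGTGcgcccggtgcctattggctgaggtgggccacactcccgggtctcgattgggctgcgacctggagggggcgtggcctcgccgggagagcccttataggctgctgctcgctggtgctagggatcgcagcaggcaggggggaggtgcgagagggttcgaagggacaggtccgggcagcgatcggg
These letters were found in 24 of 44 promoters of the list, in which a gene can have several starts (54.5%), in 25.5% of all promoters, in 26.6% of those of genes called higher and in 25.4% of those called lower. The other form of the core, GCGTG, was in 52.3% of the promoters of the list and 49.0% of all.

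Cytokines and chemokines divided. Of 32 genes 10 rose (31.2%) and 8 fell (25.0%), where 16.3% and 18.8% of all genes did, and the median was negative in macrophages (−0.20 and −0.27) and positive in monocytes (0.65) and neutrophils (0.97). Besides Il1a and Osm, Il23a rose, the p19 subunit of interleukin-23, which drives type 17 responses in the gut. It ran from 0 reads to 21.4 RPKM in LP and from 0.0572 to 342 RPKM in tumours, with a common effect of 4.67 (standard error 0.72, adjusted p = 3.38e-05). In MHCIIlow macrophages of LP no library had over 3 reads, which makes the difference there at least 26.7-fold higher in tumours (17.1-fold without tumour library I). Ccl5 and Ccl7, chemoattractants of T cells and of monocytes, fell by 3.03 (0.71) and 2.49 (0.68), with −6.08 and −5.68 in neutrophils. In tumour neutrophils Ccl5 measured 0.00923, 0.00923 and 1.64 RPKM and Ccl7 0.0111, 1.24 and 0.0111. The size of the effects there thus rests in part on the prior count. LP and tumour values overlapped for Ccl5 in both macrophage subsets and for Ccl7 in MHCIIhi macrophages and monocytes. For Ccl5 a difference between the populations was not called (adjusted p = 0.17), while for Ccl7 it was (adjusted p = 0.0363). The common call of Ccl7 was lost without MHCIIlow macrophages (−2.25, adjusted p = 0.0627).

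In the list of NF-kB feedback genes 5 rose (27.8%) and 8 fell (44.4%) of 18. Cd40, the costimulatory receptor, fell by 1.90 (standard error 0.21, adjusted p = 3.96e-07). It measured 60.4, 73.2 and 74.7 RPKM in MHCIIhi and 42.9, 36.2 and 25.6 in MHCIIlow macrophages, 36, 29.4 and 37.5 in monocytes and 3.67, 5.29 and 10.6 in neutrophils of LP. In tumours it was at 17.8, 13.5 and 11.1, at 12.4, 7.44 and 7.15, at 19.4, 19.4 and 15.4, and at 0.662, 1.84 and 1.23. Tnip3, an inhibitor of NF-kB bound to A20, fell by 1.96 (0.25), and Nfkbiz, an atypical inhibitor protein needed for secondary inflammatory genes, rose by 0.95 (0.18), most in neutrophils (2.02).

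Immediate early genes, which are switched on within minutes of a stimulus and also by tissue handling, rose in common for 12 of 29 genes (41.4%) and fell for 1. The populations were not alike. Taken alone, 8 were called higher and 2 lower in MHCIIhi macrophages, but 3 higher and 7 lower in MHCIIlow macrophages (median −0.10). In monocytes 10 were higher and 1 lower, and in neutrophils 17 and 0 (median 1.08). Nr4a1, Nr4a2 and Nr4a3, orphan nuclear receptors, rose by 2.23 (standard error 0.30), 1.59 (0.19) and 1.82 (0.24). Nr4a3 rose in every population, and Nr4a1 had an effect of 0.48 in MHCIIlow macrophages (adjusted p = 0.35) but 3.81 in neutrophils. LP library II of MHCIIlow macrophages measured 157 RPKM of Nr4a1, against 52.2 and 60.2 in LP libraries III and IV. The digestion of the tissue differed between LP and tumour, and its part in these genes cannot be told apart from the tumour. Per1 and Per2, repressors of the circadian clock that glucocorticoids also induce, rose by 1.67 (0.14) and 1.77 (0.26). Per1 measured 4.12 to 8.33 RPKM in macrophages and monocytes of LP against 11.8 to 33.5 in tumours, and 20.1 to 32.1 against 83.2 to 111 in neutrophils. Of the 15 clock genes 3 rose (20.0%) and 1 fell, near or under the share of all genes, and of 11 glucocorticoid targets 4 rose and 3 fell. Fkbp5, the classical target, rose by 1.5 (0.29), while Cd163, the haemoglobin scavenger receptor, fell by 3.51 (0.77).

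A promoter of Il1a is shown for its single match to the letters of an AP-1 site, TGANTCA, 12 bases before the start at chr2:129309973-129310122 on the minus strand.
Il1a: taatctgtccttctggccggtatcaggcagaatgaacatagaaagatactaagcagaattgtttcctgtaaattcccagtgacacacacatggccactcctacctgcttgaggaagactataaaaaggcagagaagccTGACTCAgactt
That motif was in 5.46% of promoters of genes called higher, 7.49% of those called lower and 5.95% of all. The E-box CACGTG stood in 9.61%, 10.9% and 10.1%, the cAMP response element TGACGTCA in 3.1%, 3.01% and 3.01%, and GCGTG in 49.8%, 49.2% and 49.0%.

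**Figure D4:**
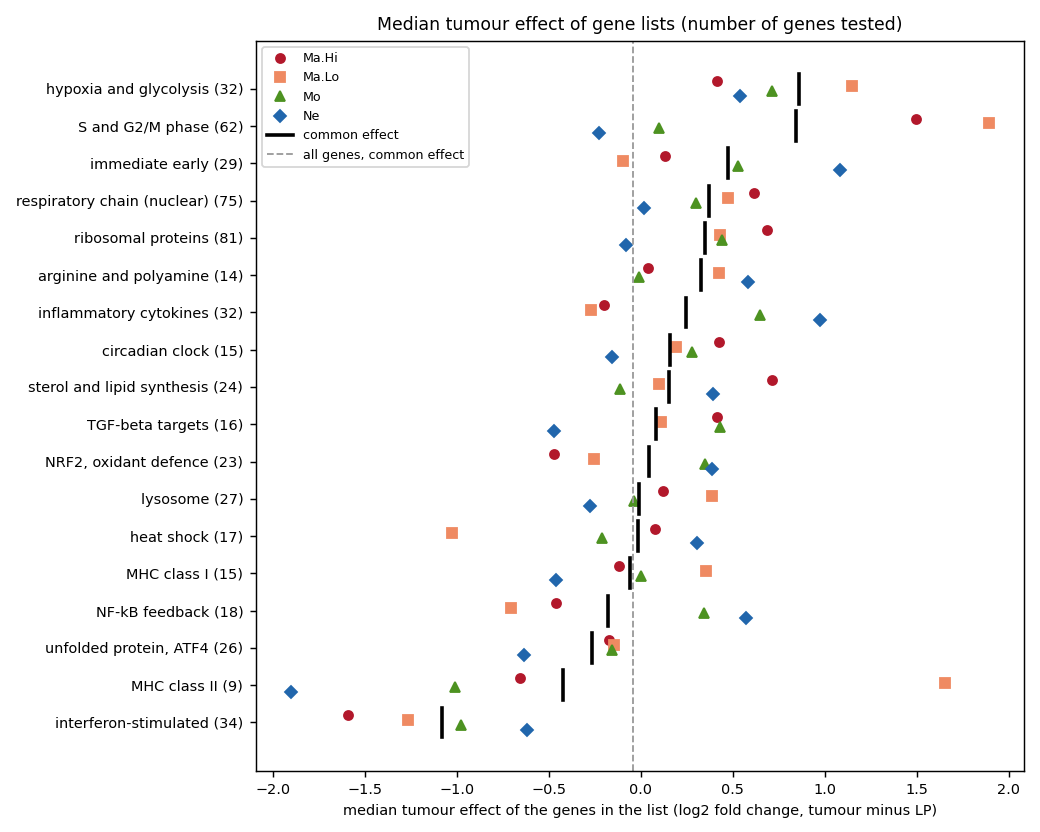
Symbols are the median tumour minus LP differences (log2 fold change) of the tested genes of 18 lists in the 4 populations, black bars the median common effect and the dashed line that of all genes (−0.04). Interferon-stimulated genes are lowest (−1.08) and hypoxia and glycolysis highest (0.86), and for S and G2/M genes or MHC class II the populations lie on both sides of 0.

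Genes of growth and energy supply had higher medians in macrophages than in neutrophils. Of 75 nuclear genes of the respiratory chain 30 rose (40.0%, against 16.3% of all genes) and 0 fell, and 14 with library sizes as summed reads, with a median of 0.37 and population medians from 0.62 in MHCIIhi macrophages to 0.02 in neutrophils. Cox5a, a subunit of cytochrome c oxidase, rose by 0.83 (standard error 0.14, adjusted p = 7.89e-05). Of 81 ribosomal protein genes 29 rose (35.8%) and 1 fell, with a median of 0.35, and −0.08 in neutrophils. With library sizes as summed reads 16 of them rose, where the number of all genes called higher went from 2093 to 1504. Their median less that of all genes was 0.38 with that scaling, and 0.39 and 0.40 with the other alternative scalings. Many of the ribosomal protein genes have processed pseudogenes that can share reads. Rps28 rose by 0.98 (0.18). Of 62 genes of S and G2/M phase 22 rose (35.5%) and 2 fell, with medians of 1.5 and 1.90 in macrophages, 0.10 in monocytes and −0.23 in neutrophils. Nek2, a kinase of the centrosome, rose by 4.46 (0.99), but was at or under 0.974 RPKM in LP and at 0.0875 to 5.67 in tumours, and Bub1, a spindle checkpoint kinase, rose by 3.18 (0.85) to at most 6.22 RPKM. Both had 0 reads in some LP libraries, so the size of these effects rests in part on the prior count, and Bub1 was not called without MHCIIhi macrophages (2.20, adjusted p = 0.111). Nek2 and Bub1 also averaged 1 RPKM or over only in tumour groups, so the filter on low values favoured a rise.

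Arginine and polyamine genes rose for 8 and fell for 4 of 14, but with library sizes as summed reads for 5 and 5. Beside Arg1, the arginine transporter Slc7a2 rose by 1.88 (standard error 0.29) and Ass1, which makes arginine from citrulline, by 1.70 (0.39), with 4.40 in MHCIIlow macrophages against 0.48 to 1.05 elsewhere. MHC class II genes had effects of opposite sign in the populations. Of 9 genes 0 rose and 1 fell, and the medians were −0.66, 1.65, −1.01 and −1.90 in MHCIIhi macrophages, MHCIIlow macrophages, monocytes and neutrophils. The cells were sorted by MHCII, so its level within the macrophage gates is set in part by the sort. Of 15 class I genes 0 rose and 4 fell, among them H2-K1, by 0.52 (0.11) from 677 to 1530 RPKM in LP to 531 to 1060 in tumours, and H2-Q7, by 1.45 (0.19), whose reads can be shared with other genes of its family.

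Transcripts of cells outside the sort gates differed with the tissue. Those of fibroblasts were lower in tumours: of 11 genes tested 9 fell and 0 rose, 8 of them without overlap. All 13 genes of that list together summed to 11.8 to 86.6 RPKM in the LP libraries and 1.02 to 5.56 in the tumour libraries. Lum (lumican) had 0.404 to 10.4 RPKM in LP and 0 reads in each of the 12 tumour libraries, at least 158-fold lower in tumour MHCIIlow macrophages and 58.4-fold in monocytes. Dcn (decorin), one of the 15 lower genes described above, measured 4.29 to 37.4 RPKM in LP and at most 1.02 in tumours, at least 99.0-fold lower in neutrophils. Col3a1, a collagen, was at least 182-fold lower in tumour monocytes (101-fold without LP library III), and Sparc, a matrix protein, fell by 4.41 on the log2 scale, from 1.16 to 9.85 RPKM in LP to at most 0.415 in tumours. Adamts1, a matrix protease counted with the matrix genes, of which 7 rose and 8 fell of 27, was at least 45.8-fold lower in tumour MHCIIlow macrophages (26.1-fold without LP library IV). Lum, Dcn, Col3a1, Sparc and Adamts1 averaged 1 RPKM or over only in LP groups, so the filter on low values favoured a fall.

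Plasma cell transcripts were lower too. Of 10 genes of B and plasma cells 7 fell and 0 rose, and the list summed to 120 to 12900 RPKM in LP and 19.1 to 404 in tumours. Jchain, the joining chain of IgA, ran from 5.23 to 1270 RPKM in LP and from 0 reads to 65.1 RPKM in tumours, overlapping in MHCIIlow macrophages. Pou2af1, a cofactor of B cells, was at least 26.3-fold lower in tumour monocytes, where it had 0 reads. Of the 172 immunoglobulin genes tested 115 were called lower and 0 higher, so that 2304 of the 2419 lower genes were of other kinds. Endothelial markers fell for 2 of 4 genes, with Cldn5 at up to 2.38 RPKM in LP and at most 0.0534 in tumours. In MHCIIlow macrophages, however, the summed endothelial list was higher in tumours, 11.8 to 18.5 against 2.45 to 11.3 RPKM, and 1 gene was called higher there. Dendritic markers fell for 5 of 8, with Cd209a at least 60.7-fold lower in MHCIIlow macrophages. The summed dendritic list was lower in tumours in both macrophage subsets and overlapped in monocytes. In neutrophils that sum was higher in tumours, 833 to 954 against 703 to 792 RPKM. Squamous keratins and partners fell for 5 of 11, but for 1 without the LP monocyte libraries III and V. Pou2af1 and Cldn5 averaged 1 RPKM or over only in LP groups, so the filter on low values favoured a fall. For T and NK cell markers (2 of 10) and an eosinophil list (1 of 4) the numbers called lower were close to the share of all genes, and the T and NK median was 0.03. The T and NK sum was nevertheless lower in tumours without overlap in MHCIIhi macrophages, monocytes and neutrophils. It was 143 to 150 RPKM in LP against 17.4 to 26.6 in MHCIIhi macrophages and 70.8 to 86.7 against 30.3 to 40.4 in monocytes. In neutrophils its medians were 24.4 and 6.09, and in MHCIIlow macrophages the groups overlapped. Most of the sum in MHCIIhi macrophages of LP was Il7r, at 139 to 145 RPKM against 12.2 to 20.2 in tumours.

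Other transcripts were higher in tumours. Nkd1 and Wif1, inhibitors of Wnt signalling known to be raised in Apc-mutant epithelium, were at or near 0 reads in LP, apart from 1 monocyte library with Wif1 at 1.44 RPKM. Nkd1, on chromosome 8 from 88521354 to 88594884, had at most 1 read in any of the 12 LP libraries. In tumours it measured 0.378, 0.797 and 0.396 RPKM in MHCIIhi macrophages, 0.205, 0.505 and 1.1 in MHCIIlow macrophages, 0.795, 1.78 and 1.75 in monocytes and 1.8, 0.855 and 1.93 in neutrophils. That is at least 30.3-, 21.2-, 71.5- and 41.9-fold higher (12.4-fold in MHCIIlow macrophages without tumour library VII). Wif1 reached 9.6 RPKM in tumours, where 1 library had 0 reads, and was at least 85.5-fold higher in neutrophils. Of the 4 Wnt-related genes tested 2 rose and 0 fell. Nkd1 and Wif1 averaged 1 RPKM or over only in tumour groups, so the filter on low values favoured a rise. Of 15 epithelial genes 8 rose and 0 fell, against 16.3% and 18.8% of all genes. Taken alone, 1 epithelial gene was called higher in each macrophage subset, 4 in monocytes and 3 in neutrophils. The epithelial list summed to 9.47 to 260 RPKM in LP and 10.8 to 440 in tumours. Its LP and tumour medians were 10.6 and 42.8 in MHCIIhi macrophages and 38.8 and 37.0 in MHCIIlow macrophages. They were 86.8 and 280 in monocytes and 33.9 and 312 in neutrophils. Krt18, a keratin of simple epithelium, was among the 15 higher genes described above, from 0.318 to 5.13 RPKM in LP to 1.14 to 59 in tumours. Cdh1, E-cadherin, rose by 2.81 (0.65). In monocytes its groups overlapped, at 21.9, 4.93 and 17.9 RPKM in LP and 8.35, 23.4 and 18.8 in tumours.

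Haemoglobin transcripts rose as well, for 4 of 5 erythroid genes with 0 lower. Hbb-bs had at most 4 reads (0.138 RPKM) in an LP library and 0.639 to 9.58 RPKM in tumours, at least 38.5-fold higher in neutrophils. Hba-a1 was at least 12.7-fold higher in neutrophils. Both have near-identical copies, so each value may hold reads of the other copy. Of 8 mast cell genes 4 rose and 0 fell, and 2 rose without the LP monocyte libraries III and V. Mcpt1, a mucosal mast cell protease, had 0 reads in 11 of 12 LP libraries and measured 4.22, 5.84 and 6.85 RPKM in 3 tumour libraries, with at most 1.36 in the other 9. Hbb-bs, Hba-a1, Hbb-bt, Alas2, Mcpt1, Tpsb2, Mcpt2 and Cma1 averaged 1 RPKM or over only in tumour groups. The filter on low values thus favoured a rise of these erythroid and mast cell genes. In sorted bulk RNA, transcripts carried over from other cells, low expression by the sorted cells and, likewise, fewer cells or less RNA per cell cannot be told apart. What part such cells have in the genes that rose or fell in common was not tested.

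**Figure D5:**
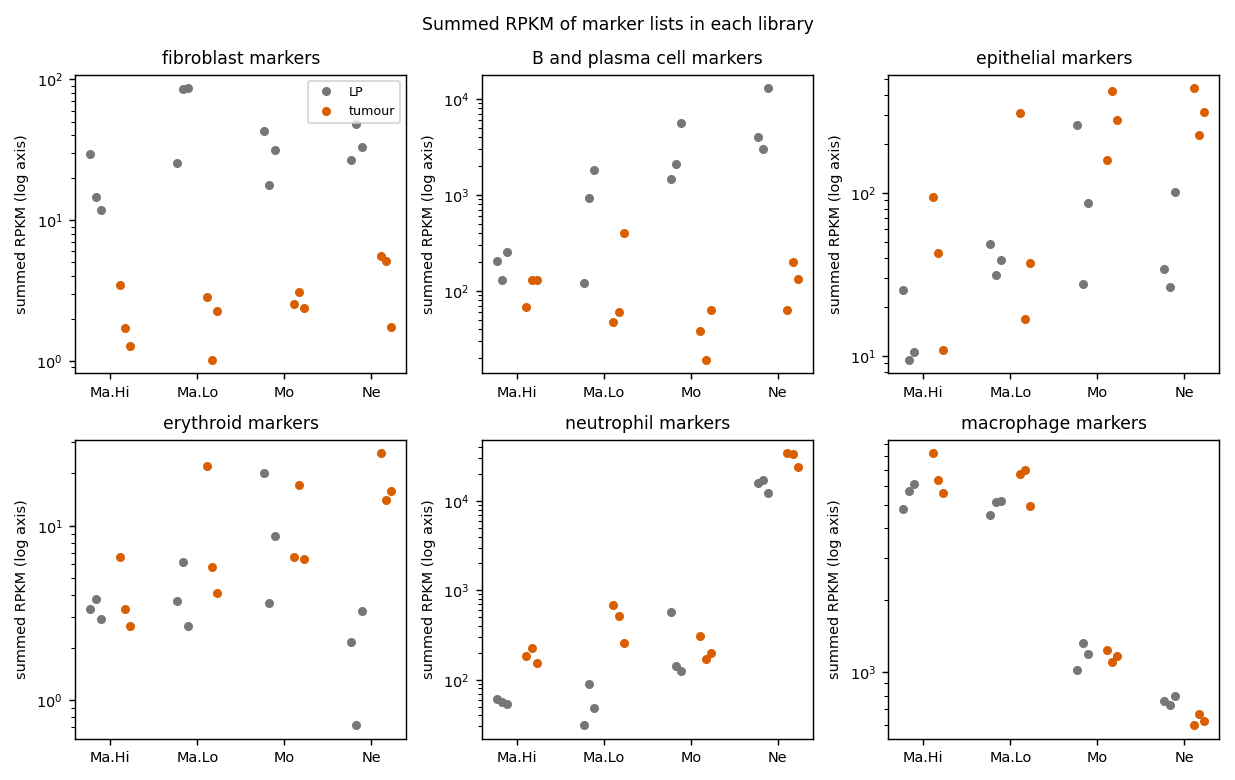
Dots are summed RPKM of 6 marker lists in each library on log axes, grey for LP and orange for tumour. Fibroblast sums lie at 11.8 to 86.6 in LP and 1.02 to 5.56 in tumours, whereas macrophage sums lie at 728 to 6140 and 601 to 8230.

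The markers of the sorted cells were also counted. Of 10 macrophage genes 5 rose and 3 fell, of 7 monocyte genes 1 rose and of 10 neutrophil genes 6 rose, or 3 without the LP monocyte libraries III and V. Mertk, the receptor with which macrophages take up dying cells, rose in every population, from 9.31, 11.2 and 11.9 to 56.9, 62.4 and 63 RPKM in MHCIIhi macrophages and from 0.06 to 0.281 up to 0.501 to 0.844 in neutrophils. Its common effect was 2.11 (standard error 0.21, adjusted p = 1.56e-07). Cx3cr1, the fractalkine receptor, rose by 2.52 (0.36), while Mrc1, the mannose receptor of resident macrophages, fell by 1.92 (0.35), with −0.40 in MHCIIhi macrophages (adjusted p = 0.721) and −1.67 to −3.0 in the others. Csf1r, the receptor for the growth factor of macrophages, rose by 0.44 (0.09), and Fn1, fibronectin, by 1.57 (0.22). Mmp8, the neutrophil collagenase, rose by 2.38 (0.58).

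Some genes had opposite effects that a common term hides. Among genes called higher in at least 1 population and lower in another, with levels of 5 RPKM or more, the 5 with the widest range were Serpinb2, Rfx2, Fosl1, F13a1 and Slc28a2. Serpinb2, plasminogen activator inhibitor 2, fell by 7.81 in MHCIIhi and 7.04 in MHCIIlow macrophages and rose by 6.03 in neutrophils, with 0.91 in monocytes (adjusted p = 0.78). Fosl1, an AP-1 subunit, fell by 3.40 and 4.46 in macrophages and rose by 2.84 in neutrophils, but 57.2% of its exon bases lie opposite Ccdc85b and the counting may not use strand. F13a1, coagulation factor XIII, a marker of monocytes, fell by 2.95 and 4.04 and rose by 2.45 in neutrophils. Slc28a2, a nucleoside transporter, fell by 3.82 and 5.23 and rose by 1.16, and Rfx2, a transcription factor of cilia, fell by 5.51 in MHCIIlow macrophages and rose by 4.60 in neutrophils. The common effect was −1.98 for Serpinb2, −0.80 for Rfx2, −1.12 for Fosl1 and −0.77 for F13a1, none of which passed the test. That of Slc28a2 did, at −2.09 (adjusted p = 0.00548), but not without MHCIIhi (−1.52, adjusted p = 0.105) or without MHCIIlow macrophages (−1.05, adjusted p = 0.14).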

How the data were processed

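The authors made SMARTSeq v2 libraries with paired reads of sorted cells and, per the labels, processed them with STAR 2.3, featureCounts 1.5 and edgeR on GRCm38/mm10. They deposited log2 RPKM for 17301 genes, scaled between libraries by the authors. The values turned back into whole reads for 100% of 415224 values (prior count 0.25, tolerance 1e-05 reads), which gave depth, a floor of 3 reads and the voom alternative. The deposited table holds 0 spike-in genes. Depth covers counting error only, since reads carry no molecular identifiers.

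A gene was tested where 1 or more of the 8 groups averaged 1 RPKM or over, using limma 3.58.1 in R 4.3.3 (lmFit, eBayes with a trend) on the deposited log2 values. For a gene that reached this level in groups of 1 tissue only, the filter favoured a call towards that tissue. The common effect is the tissue term beside population. Single populations and the moderated F test of their differences used 8 group means. P values were adjusted by Benjamini-Hochberg at 0.05. The spread is that of pooled libraries. The study's own tests used limma and voom. The script was tested on simulated data.

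Named genes were the 15 higher and 15 lower with the largest smallest effect among called genes without overlap and averaging 5 RPKM or over in the higher tissue of each population (no predicted genes, pseudogenes or immunoglobulin and T cell receptor segments), up to 4 called members of each list by size, the 5 with the widest opposite effects, Apc, and genes on which a sentence about cells turns. Genes and lists were chosen with earlier results of these data known, so list counts are no independent support. Coordinates came from GENCODE M21 by Ensembl identifier. Promoters came from RefSeq for 9067 of 12815 symbols tested. Shared reads were judged by 51-base stretches found in transcripts of other genes. Tables used python 3.11.15, numpy 2.4.6 and pandas 2.3.3, and figures matplotlib 3.10.9.

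The labels call the library number a donor, so same-numbered libraries of a tissue were taken to share a pool. Deviations from group means correlated with a median r of 0.017 (−0.0661 to 0.255) over 29 such pairs. Alternatives were other filters, pseudocounts of 1 and 0.1, 3 scalings, voom, arrayWeights, 8 group means, blocks, pool means, and leaving out each library, population or pool, or the LP monocyte libraries III and V together.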

Additional observations from a re-analysis of the deposited data

Results flagged for a closer look

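The tumour effect differed in size between the populations for 39 of the 99 genes named with their values, each with an adjusted p under 0.05 in the moderated F test of limma. The 5 genes chosen for opposite effects were bound to differ, and without them the count was 34 of 94. Most of the other genes were chosen by size of effect, so the count is not comparable with the 24.8% of all genes. The value given for each is the range of its 4 effects, the highest less the lowest on the log2 scale. Among the genes named for a change without overlap in every population the range was Il1a 2.14, Mmp9 2.68, Dcstamp 4.84, Ifit1 3.4, Dtx2 1.3, Fnip2 1.28, Zhx2 2.33, Usp18 2.25, Irgm2 1.46, Adora3 1.86 and Rtp4 2.25. Among genes chosen for opposite effects the range was Serpinb2 13.8, Rfx2 10.1, Fosl1 7.3, F13a1 6.48 and Slc28a2 6.39. Among hypoxia and interferon genes the range was Slc2a1 0.901, Ndrg1 4.65, Pdk1 2.55, Ddit4 1.89, Cmpk2 3.82 and Ifit3 2.99. Among cytokine, NF-kB, arginine and immediate early genes the range was Il23a 6.13, Ccl7 5.26, Tnip3 2.58, Nfkbiz 1.86, Ass1 3.92, Nr4a1 3.33 and Nr4a3 1.94. Among genes of the clock, the lysosome and iron transport the range was Per2 2.32, Gpnmb 3.92, Ctsc 1.17 and Slc11a2 1.3. Among receptors and ectoenzymes the range was Tlr9 6.08, Tlr2 1.12, Nt5e 3.77 and Cd209a 7.65. Among genes of the sort markers the range was Adgre1 1.01 and H2-Ab1 3.62. F4/80 and MHCII were used to sort the cells, so the differences for the last pair are not independent of the gates. For genes with 0 reads in a library the range rests in part on the prior count.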

How the results depend on the processing

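The 30 genes named for a rise or fall without overlap were called in all 51 alternatives. Of 99 results on single genes, 11 were no longer called with the donor number as a fixed term, 6 with pool means, and at most 5 with any other alternative. With library sizes as summed reads, 1022 genes were called higher with the same sign in 4 populations, 169 were higher without overlap, and 78 were higher and 187 lower in each population. That scaling moved the share of called genes that were higher from 46.4% to 33.1%, and the other alternatives gave 44.6% to 53.5%. With the donor number as a fixed replicate block, 732 genes were called higher and 840 lower, 680 and 751 of them with the same sign. Only the numbers II and V occur in both tissues, so the block leaves few comparisons within a number. With pool as a random replicate block 2254 and 2625 genes were called, at a within-pool correlation of −0.0375. Means of 4 tumour and 4 LP pools gave 1328 and 1589. Without MHCIIhi macrophages 1603 genes were lower. Counts without overlap rise by construction when a population is left out: without MHCIIlow macrophages 495 were lower, without monocytes 460 higher and 511 lower, and without neutrophils 585 and 545. Leaving out the LP monocyte libraries III and V together, an alternative chosen after seeing the data, left 52 genes higher and 47 lower in each population. With voom the common effect of Serpinb2 was 1.69 (adjusted p = 0.0473), opposite in sign to −1.98. The cause was not tested.

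Leaving out each library gave 1934 to 2174 genes higher and 2240 to 2406 lower, 1493 to 1661 and 1666 to 1741 with the same sign, 289 to 327 and 300 to 334 without overlap, 97 to 136 and 77 to 125 in each population, and 2769 to 3232 with unequal effects. The counts without overlap rise in part by construction here too, since fewer libraries have to be kept apart. Leaving out each pool gave 1645 to 2020 higher and 1868 to 2317 lower. Depth limits genes near the floor of 3 reads, where a fold change is only a lower bound.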

Other observations

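Lysosomal and lipid genes were among those that changed in both directions. Of 27 lysosomal genes 7 rose (25.9%) and 4 fell (14.8%), against 16.3% and 18.8% of all genes. With library sizes as summed reads 4 rose and 6 fell, where 1504 of all genes rose and 3037 fell. Gla, which encodes alpha-galactosidase A, fell by 1.00 (standard error 0.07, adjusted p = 1.75e-09) and Ctsc, the cathepsin that activates granule proteases, rose by 1.14 (0.13), both called in each of the 4 populations. Gpnmb, a lysosomal glycoprotein of macrophages, fell by 2.10 (0.35). In MHCIIhi macrophages it measured 92.7, 98 and 112 RPKM in LP against 25.4, 10.3 and 12 in tumours, while its effect in neutrophils was −0.10. Of 24 sterol and lipid genes 7 rose (29.2%, or 5 genes with summed reads) and 2 fell. Scd2, a fatty acid desaturase, rose by 2.65 (0.28) and was called in each population. It measured 2.24, 2.1 and 2.3 RPKM in the LP libraries of MHCIIlow macrophages and 18.3, 19.1 and 22.2 in those of tumours. In monocytes the groups overlapped, since 1 LP library stood at 10.6 RPKM and 1 tumour library at 8.07.

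Receptors and transporters differed as well. Nrp2, neuropilin 2, fell by 1.62 (0.19) and Slc11a2, the iron transporter DMT1, by 1.46 (0.14), each called in all 4 populations. Of 18 iron and haem genes 6 fell (33.3%) and 0 rose. Tlr2, a receptor for bacterial lipoproteins, rose by 1.42 (0.15) in common and was called in each population, whereas Tlr9, a receptor for CpG DNA, fell by 3.38 (0.73), with −7.87 in neutrophils. Tumour neutrophils measured 0.00255, 0.144 and 0.00255 RPKM of Tlr9, so the size of that effect rests in part on the prior count. Tgif1, a corepressor of TGF-beta signalling, rose by 0.65 (0.09) in common, called in each population. Nt5e, the ectoenzyme CD73, rose by 2.34 (0.36), with 3.76 and 3.88 in macrophages and 0.11 in neutrophils. Of 26 genes of the unfolded protein response and ATF4 1 rose and 8 fell (30.8%, or 14 genes with summed reads), among them Atf5 by 1.85 (0.32).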
